A study of Homo sapiens with 4 samples.

Results

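The annexins ANXA1, ANXA2, ANXA3, ANXA4, ANXA5, ANXA6, ANXA7 and ANXA11 and the ferlin MYOF were followed across 4 whole-transcript arrays of human multiple myeloma cells. They are 9 of the 14884 genes named on the array, each with 1 probe set, and were found by gene symbol in the platform annotation. The set was put together with the values of these arrays known: ANXA1 and MYOF were picked by their intensity differences between the ARP-1 arrays, and the other annexins were added as their family. ARP-1 and MM.1S, both established myeloma lines, had been infected with lentivirus and sorted for GFP. MIF-KO cells carried a hairpin against MIF, a secreted cytokine, and CTR-KO cells a control hairpin, so that all 4 cell populations carried a virus and KO stands for a knockdown. There was 1 array each for MIF-KO ARP-1, CTR-KO ARP-1, MIF-KO MM.1S and CTR-KO MM.1S. The labels name no separate cultures, clones or second hairpins.

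Annexins are calcium-dependent proteins that bind acidic phospholipids on the inner face of membranes through a conserved core, with a variable N-terminal tail that holds the binding sites for partners such as S100 proteins. When calcium enters through a torn plasma membrane, several annexins gather at the edge of the wound, and MYOF, a ferlin with several C2 domains, takes part in membrane fusion, resealing and receptor traffic. ANXA1 is also secreted, acts on formyl peptide receptors and is induced by glucocorticoids in many cell types.

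The hairpin target MIF was lower in MIF-KO cells of both lines, with an intensity of 541 in MIF-KO ARP-1 against 1092 in CTR-KO ARP-1 (49.6% of control), and 405 in MIF-KO MM.1S against 1012 in CTR-KO MM.1S (40% of control). The ARP-1 arrays are called by their titles and genotype labels, since the free-text descriptions of both name the opposite condition. The level of MIF ran as the titles say in both lines. With the ARP-1 arrays exchanged, each ARP-1 difference changes its sign, that of MIF included, which would then be 2.02-fold higher in the ARP-1 cells with the MIF hairpin. The array medians lay between 13.1 and 13.3. The arrays did not group by line: 22.8% of the 7442 tested genes were 1.5-fold or more apart between the ARP-1 arrays, against 6.64% for the closest pair, MIF-KO ARP-1 with CTR-KO MM.1S. CTR-KO ARP-1 was 22.3% apart from CTR-KO MM.1S and 10.5% from MIF-KO MM.1S, and the MM.1S arrays were 8.01% apart. No ARP-1 difference can be formed without the CTR-KO ARP-1 array, so the MM.1S values beside each one are those that do not rest on it. Of the 8 plasma cell markers listed for the check, 6 were named on the array, with summed intensities of 6821 in MIF-KO ARP-1, 5780 in CTR-KO ARP-1, 5896 in MIF-KO MM.1S and 6004 in CTR-KO MM.1S. IRF4 alone gave 4380 of the 6821 in MIF-KO ARP-1, so these sums mostly follow 1 gene. Of the other lists, 2 of 5 T cell, 4 of 5 monocyte and 2 of 5 fibroblast markers were named. The sum of each of these lists stayed at or below 48.5 on each array. EPCAM, which defines epithelial cells, stayed at or below 8.14, while the keratin KRT18 lay between 161 and 203.

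The 9 genes fell into distinct patterns. ANXA1 and MYOF spanned 12.4-fold and 6.18-fold over the 4 arrays, ANXA6 spanned 1.68-fold, and the 5 annexins ANXA2, ANXA4, ANXA5, ANXA7 and ANXA11 spanned 1.05-fold to 1.34-fold. ANXA3 stayed under the probe set median of each of the 4 arrays. Of the 8 members above the filter on low values (a mean log2 at or above the median of all genes), 3 were lower in MIF-KO than in CTR-KO ARP-1 by 1.5-fold or more and 0 were higher by that much, where 11.9% of all 7442 tested genes were lower and 10.9% higher. These include the genes the set was built around, so nothing is read from that share. In MM.1S, 1 of the 8 was higher in MIF-KO cells by 1.5-fold or more and 0 were lower, where 5.12% of tested genes were higher and 2.89% lower.

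**Figure D1:**
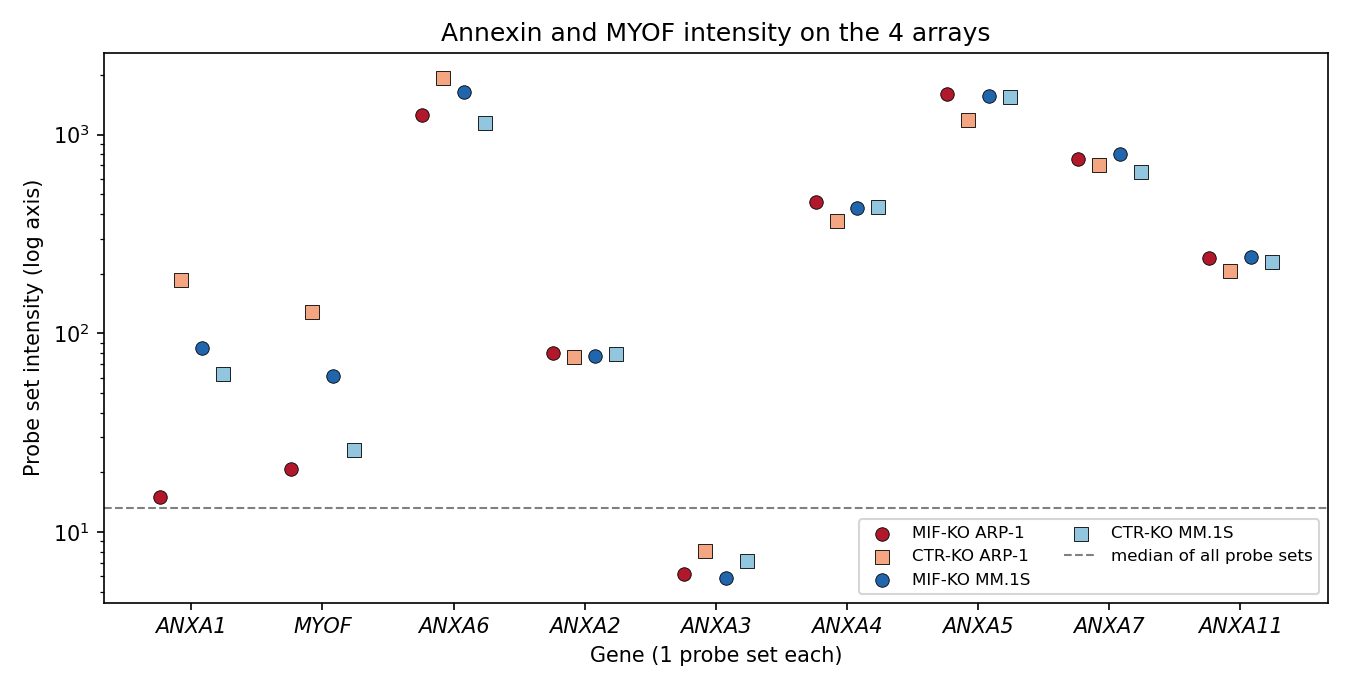
Probe set intensity (log axis) of the 8 annexins and MYOF on each of the 4 arrays; circles are MIF-KO, squares CTR-KO, and the dashed line is the median of all probe sets. ANXA1 runs between 15.0 and 186 and MYOF between 20.8 and 129, while the points of ANXA2 nearly coincide; levels of different genes are not comparable, since each has its own probes.

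Before the single genes, the upstream sequence of 4 of them is shown: the 3 that differed at 1.5-fold in ARP-1, and ANXA5 as a member that did not. RefSeq promoter sequences (GRCh38.p14) were found for all 9 members by symbol, and the 250 bases before the start are printed on the gene's strand. ANXA1 is at chr9:73151615-73151864 (plus strand), MYOF at chr10:93482335-93482584 (minus strand), ANXA6 at chr5:151157780-151158029 (minus strand, the first of 2 starts) and ANXA5 at chr4:121696981-121697230 (minus strand). Capitals mark matches, on either strand, to GGGCGG (the GC box), CACGTG (the E-box), TATAAA (the TATA box) and the CCAAT box, which is named by its letters.
ANXA1: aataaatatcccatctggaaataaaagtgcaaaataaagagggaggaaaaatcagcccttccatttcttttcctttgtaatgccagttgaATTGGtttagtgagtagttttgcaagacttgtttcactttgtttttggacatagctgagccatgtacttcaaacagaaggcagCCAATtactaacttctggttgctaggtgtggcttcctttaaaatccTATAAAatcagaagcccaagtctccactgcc
MYOF: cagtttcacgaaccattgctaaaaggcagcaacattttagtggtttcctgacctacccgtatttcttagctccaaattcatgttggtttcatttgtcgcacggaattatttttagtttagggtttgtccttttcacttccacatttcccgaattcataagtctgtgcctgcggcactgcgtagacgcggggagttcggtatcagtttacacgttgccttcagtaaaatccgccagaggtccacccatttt
ANXA6: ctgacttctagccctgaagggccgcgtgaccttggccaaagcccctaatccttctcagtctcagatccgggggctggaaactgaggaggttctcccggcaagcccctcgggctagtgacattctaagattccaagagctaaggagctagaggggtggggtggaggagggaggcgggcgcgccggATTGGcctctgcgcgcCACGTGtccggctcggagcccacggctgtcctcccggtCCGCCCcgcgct
ANXA5: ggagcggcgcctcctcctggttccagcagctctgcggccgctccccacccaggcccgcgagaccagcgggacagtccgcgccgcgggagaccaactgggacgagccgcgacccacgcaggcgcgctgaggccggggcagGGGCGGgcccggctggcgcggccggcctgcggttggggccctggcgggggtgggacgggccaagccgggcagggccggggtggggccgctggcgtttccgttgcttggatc

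In all 6 motifs were searched, the others being TGANTCA (AP-1) and GGAATG (TEAD). In the window of ANXA1 the TATA box began 31 bases before the start, and there were 2 CCAAT matches. By first start, 3 members had a TATA match: ANXA1, ANXA2 (also 31 bases before the start) and ANXA11, and the last 2 were among the narrow annexins. A TATA match is present in 10.7% of the 35116 RefSeq promoter windows of this length and a CCAAT match in 32%. At its first start ANXA6 had 1 match each to the CCAAT box, the E-box (6.34% of windows) and the GC box (42.6% of windows). The window of its second start, which is not printed, held none of the 6 motifs, at a G and C content of 56.4%. ANXA5 had 1 GC box. MYOF held none of the 6 motifs, and AP-1 (6.57% of windows) and TEAD (11.9% of windows) had no match in these 4 sequences. The G and C content was 38.4% for ANXA1 and 44.4% for MYOF, against 65.6% for ANXA6, 78.8% for ANXA5 and a median of 58% over all windows. Of the members, ANXA1 and MYOF had the lowest content among first starts, and ANXA5 the highest. A match is a run of letters and not a measured site.

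ANXA1 had an intensity of 15.0 in MIF-KO ARP-1 against 186 in CTR-KO ARP-1. In MM.1S it was 84.9 in MIF-KO cells against 62.8 in CTR-KO cells. The arrays of MM.1S thus lay between those of ARP-1, and MIF-KO ARP-1 was near the median of all probe sets. The log2 difference, MIF-KO minus CTR-KO, was -3.63 in ARP-1 (12.4-fold lower), the most negative of all 7442 tested genes, and 0.44 in MM.1S (1.35-fold higher). ANXA1 was picked by its ARP-1 difference, so nothing is read from its rank there. In MM.1S, 17.5% of the tested genes lay at least as far from 0, so the small opposite difference in that line is of ordinary size. Since the low value is close to the level of probe sets with little signal, the size of the ARP-1 difference is uncertain on its low side: on a log2 scale with 16 added to each value it was -2.70.

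MYOF had an intensity of 20.8 in MIF-KO ARP-1 against 129 in CTR-KO ARP-1, and 61.2 in MIF-KO MM.1S against 25.9 in CTR-KO MM.1S. Here the high array was the control in one line and the knockdown in the other, and the 2 low arrays lay close together. The log2 difference was -2.63 in ARP-1 (6.18-fold lower), the third most negative of the tested genes (-1.97 with 16 added to each value, the low intensity again being close to the array median), and 1.24 in MM.1S (2.36-fold higher), where it ranked 17 from the most positive. MYOF thus passed 1.5-fold in each line, in opposite directions, as were 4.88% of the tested genes. It was the 1 member for which this held. As with ANXA1, nothing is read from the ARP-1 rank, since MYOF was picked by that difference.

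ANXA6, which carries a duplicated annexin core, had an intensity of 1248 in MIF-KO ARP-1 against 1927 in CTR-KO ARP-1, and 1645 in MIF-KO MM.1S against 1148 in CTR-KO MM.1S. The order of the 4 arrays was again opposite between the lines, with a smaller span. The log2 difference of -0.63 in ARP-1 was just past the 1.5-fold limit of 0.58 on that scale, and the difference of 0.52 in MM.1S just short of it. In ARP-1, 20% of tested genes lay at least as far from 0 as ANXA6, and in MM.1S 11.7%.

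**Figure D2:**
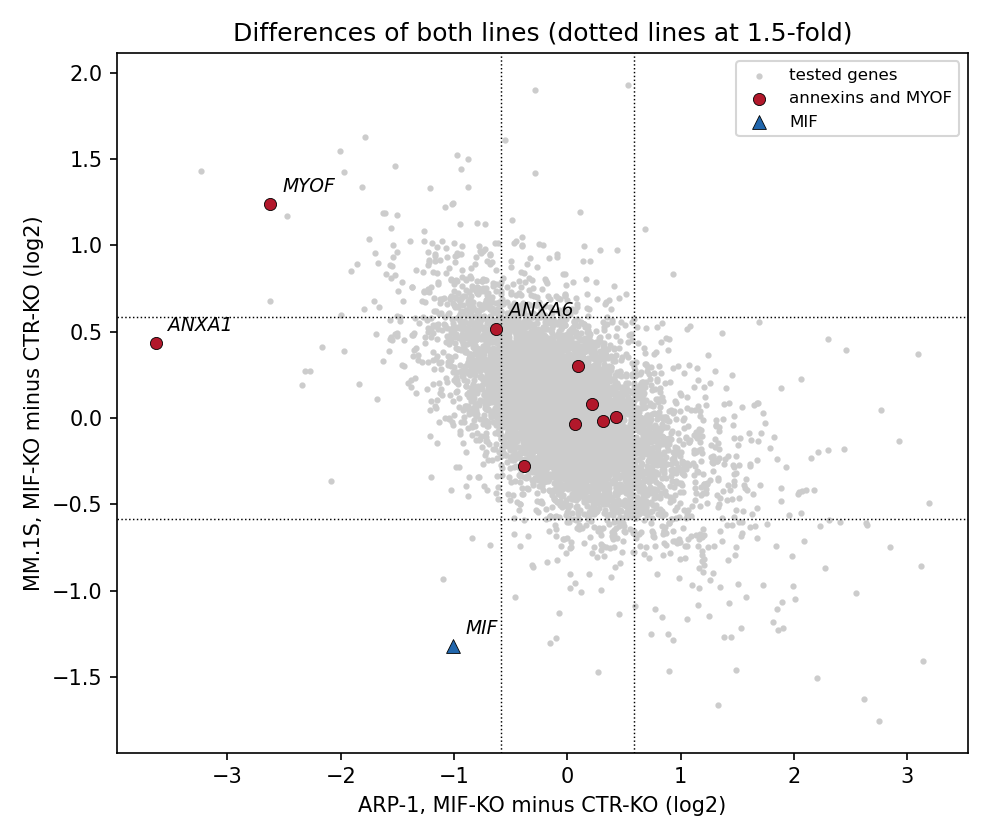
Log2 difference, MIF-KO minus CTR-KO, in ARP-1 (x axis) and in MM.1S (y axis); grey points are the tested genes, red points the 8 annexins and MYOF, the blue triangle MIF, and dotted lines mark 1.5-fold. ANXA1 is the leftmost point at -3.63, MYOF lies at -2.63 and 1.24, and 6 of the 9 members lie inside the central square.

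The other annexins differed little. ANXA5, which binds exposed phosphatidylserine and forms lattices on membranes, had an intensity of 1597 in MIF-KO ARP-1 against 1188 in CTR-KO ARP-1, and 1556 in MIF-KO MM.1S against 1547 in CTR-KO MM.1S. Its CTR-KO ARP-1 value was the low one and the other 3 arrays were nearly alike, with a log2 difference of 0.43 for ARP-1. The MM.1S difference was 0.01 and took the other sign once arrays were shifted to one median or quantile-normalized. ANXA4, an annexin of secretory epithelia, had 457 in MIF-KO ARP-1 against 368 in CTR-KO ARP-1, and 426 in MIF-KO MM.1S against 431 in CTR-KO MM.1S. This is the same order in ARP-1, with a log2 difference of 0.31, and near-equal values in MM.1S.

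ANXA7, which binds the calcium-binding protein sorcin, had 750 in MIF-KO ARP-1 against 704 in CTR-KO ARP-1, and 796 in MIF-KO MM.1S against 647 in CTR-KO MM.1S. Both MIF-KO arrays were above their controls, by log2 differences of 0.09 and 0.30. ANXA11, which tethers RNA granules to lysosomes, had 239 in MIF-KO ARP-1 against 206 in CTR-KO ARP-1, and 241 in MIF-KO MM.1S against 228 in CTR-KO MM.1S. Its MIF-KO arrays were also above their controls in both lines, by 0.22 and 0.08 on the log2 scale. In MM.1S, 33.5% of tested genes lay at least as far from 0 as ANXA7, and 77.1% as far as ANXA11.

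ANXA2, which pairs with S100A10 and binds plasminogen at the cell surface, had 79.7 in MIF-KO ARP-1 against 75.9 in CTR-KO ARP-1, and 76.8 in MIF-KO MM.1S against 78.7 in CTR-KO MM.1S. It had the narrowest span of the members, 1.05-fold, with log2 differences of 0.07 and -0.04. Processed ANXA2 pseudogenes resemble the gene closely, so its probes may share signal with them. ANXA3 had 6.18 in MIF-KO ARP-1 against 8.04 in CTR-KO ARP-1, and 5.92 in MIF-KO MM.1S against 7.18 in CTR-KO MM.1S. All 4 values were below the array medians, and no fold is read from them.

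The model over all 4 arrays was limma with cell line and condition as terms. It called 0 of 7442 genes for MIF-KO against CTR-KO (0%) at an adjusted p below 0.05. An unadjusted p below 0.05 was found for 29 genes, a share of the tested genes well under 0.05. No member was among those 29. The mean log2 difference over the lines was -1.60 for ANXA1 (SE 0.94, n = 2 lines) and -0.69 for MYOF (SE 0.89, n = 2 lines). For ANXA6 it was -0.05 (SE 0.36, n = 2 lines). The residual of this model is the disagreement between the lines, and these 3 genes disagreed in sign. Their differences in MM.1S and ARP-1 were 4.07 (ANXA1), 3.87 (MYOF) and 1.14 (ANXA6) apart on the log2 scale. The model draws each gene's error toward a trend over all tested genes. The SEs of these 3 genes are therefore smaller than the disagreement of the lines alone would give. The limma adjusted p was 0.99995 for each of the 8 tested members. Leaving out the ARP-1 pair turned the mean of ANXA1 to 0.44 and that of MYOF to 1.24. With 1 array per line and condition, the opposition of the lines itself cannot be tested.

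Between the lines, the same 3 genes differed. These comparisons use the same 4 arrays as those above and add no separate evidence. Under the MIF hairpin, ANXA1 had 84.9 in MM.1S against 15.0 in ARP-1, a log2 difference of 2.50 (1.70 with 16 added to each value), and MYOF 61.2 against 20.8, a difference of 1.56. At 1.5-fold these were the 2 of 8 members higher in MM.1S, with 0 lower, where 8.22% of tested genes were higher and 4.37% lower. Under the control hairpin ANXA1, MYOF and ANXA6 were lower in MM.1S, at log2 differences of -1.56, -2.31 and -0.75, with 0 of 8 members higher, where 11.1% of tested genes were lower and 11.2% higher. The order of the lines for ANXA1, MYOF and ANXA6 was thus opposite on the MIF-KO and the CTR-KO arrays, which with 1 array each was not tested. The 5 narrow annexins stayed between -0.10 and 0.09 between MIF-KO arrays and between -0.12 and 0.38 between CTR-KO arrays. Over both conditions limma called 0 of 7442 genes for MM.1S against ARP-1 (0%). An unadjusted p below 0.05 was found for 87 genes, again a share under 0.05.

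The genes with the profile most like that of ANXA1 or MYOF were found by the distance between log2 values centred on each gene's mean over the 4 arrays. For ANXA1 the 5 nearest of the tested genes were the antisense RNA AFAP1-AS1 (distance 0.95), the lipopolysaccharide receptor TLR4 (0.97), ABTB2 (1.04), the actin-like ACTL8 (1.10) and the ribosome assembly factor RRS1 (1.10), against a median distance of 2.62 over all tested genes. MYOF ranked 6 in this list, at 1.24. For MYOF the 5 nearest were ACTL8 (0.45), the RNA polymerase III subunit POLR3G (0.49), the replication helicase subunit GINS2 (0.58), glycine decarboxylase GLDC (0.61) and the RNase P subunit RPP40 (0.63), against a median of 2.08. ANXA1 ranked 146 from MYOF and ANXA6 ranked 525. TLR4 had an intensity of 22.7 in MIF-KO ARP-1 against 127 in CTR-KO ARP-1, and 105 in MIF-KO MM.1S against 46.8 in CTR-KO MM.1S. POLR3G had 135 in MIF-KO ARP-1 against 541 in CTR-KO ARP-1, and 349 in MIF-KO MM.1S against 120 in CTR-KO MM.1S. All these genes shared a high CTR-KO ARP-1 array and a low MIF-KO ARP-1 array. With 4 arrays, likeness of this kind is a description.

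**Figure D3:**
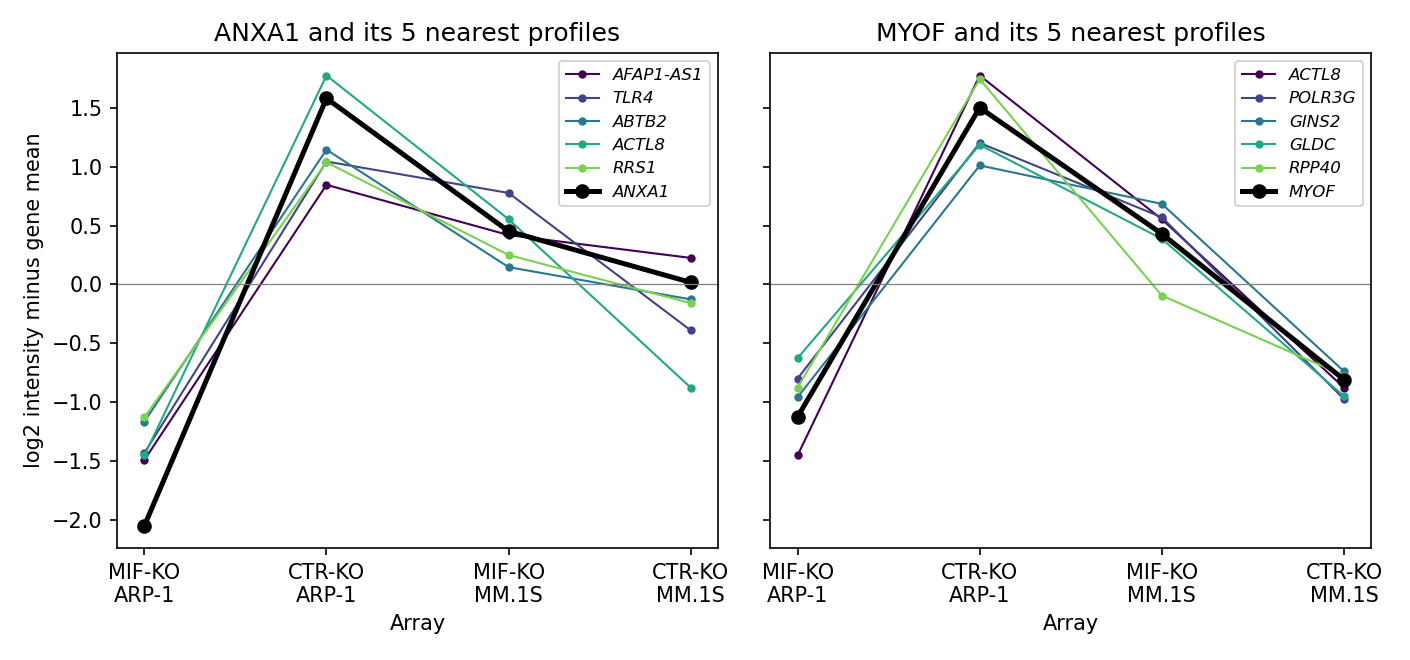
Log2 intensity minus the gene's mean over the 4 arrays, for ANXA1 (left, black) and MYOF (right, black) with the 5 nearest tested genes each (thin lines). Each profile has its highest point on CTR-KO ARP-1; the ANXA1 group is lowest on MIF-KO ARP-1, and the MYOF group is low on both the MIF-KO array of ARP-1 and the CTR-KO array of MM.1S.

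Partner genes were counted from 10 lists. Of their 63 named genes, 33 were tested, of which, at 1.5-fold, 4 were higher and 1 was lower in MIF-KO ARP-1, with 0 higher and 1 lower in MIF-KO MM.1S. Of all tested genes 10.9% were higher and 11.9% lower in MIF-KO ARP-1, and 5.12% and 2.89% in MIF-KO MM.1S. These shares stand beside the counts of each list below, and on lists this small nothing is read from the counts. The median log2 difference of the 33 was 0.14 for ARP-1, beside -0.03 over all tested genes, and 0.02 for MM.1S, beside 0.04. Limma called none of them, and 0 genes overall.

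The remaining annexins were named with 5 probe sets, of which ANXA8 and its near-identical copy ANXA8L1 passed the filter. Neither reached 1.5-fold, with log2 differences in ARP-1 of 0.06 for ANXA8 and 0.08 for ANXA8L1. ANXA9 had 12.9 in MIF-KO ARP-1 against 23.5 in CTR-KO ARP-1, and 14.7 in MIF-KO MM.1S against 13.6 in CTR-KO MM.1S, so its highest value was also that of CTR-KO ARP-1, at a level near the array median. The other ferlins named, OTOF and FER1L6, stayed between 8.80 and 16.2.

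S100 proteins are the calcium-binding partners that link annexin tails. Of 17 named, 5 passed the filter, and 0 of these 5 reached 1.5-fold in either line. S100A10, the partner of ANXA2, had 56.7 in MIF-KO ARP-1 against 38.5 in CTR-KO ARP-1, and 69.8 in MIF-KO MM.1S against 49.8 in CTR-KO MM.1S. It was thus above its control in both lines, by log2 differences of 0.56 and 0.49, while ANXA2 itself differed by 0.07 and -0.04. S100A11, the partner of ANXA1, had 312 in MIF-KO ARP-1 against 211 in CTR-KO ARP-1, and 273 in MIF-KO MM.1S against 289 in CTR-KO MM.1S. Its ARP-1 difference of 0.56 ran opposite to that of ANXA1. S100A11 is named here beyond the naming rule, after its values were seen. The formyl peptide receptors FPR1, FPR2 and FPR3, on which secreted ANXA1 acts, stayed at or below 11.5 on all arrays, under the medians.

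Of the plasma membrane repair list 8 of 12 named genes were tested. At 1.5-fold 2 were higher and 0 lower in MIF-KO ARP-1, where 10.9% of tested genes were higher and 11.9% lower. In MM.1S 0 reached it either way, where 5.12% were higher and 2.89% lower. EHD3, an endocytic ATPase, had 218 in MIF-KO ARP-1 against 25.4 in CTR-KO ARP-1, and 74.3 in MIF-KO MM.1S against 57.5 in CTR-KO MM.1S. Its array order is that of ANXA1 turned round in ARP-1, at a log2 difference of 3.10. VAMP3, a vesicle fusion protein, had log2 differences of 0.62 for ARP-1 and -0.20 for MM.1S, and the scaffold AHNAK, which binds the complex of ANXA2 and S100A10, 0.47 and 0.10.

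ESCRT proteins pinch off damaged membrane. Of 11 tested, 1 was higher at 1.5-fold in MIF-KO ARP-1 (CHMP1B, a log2 difference of 0.64) and 0 were lower. In MM.1S 0 reached this. The shares of all tested genes were 10.9% higher and 11.9% lower in ARP-1, and 5.12% and 2.89% in MM.1S. CHMP4C, a filament subunit below the filter, had 104 in MIF-KO ARP-1 against 13.1 in CTR-KO ARP-1, and 15.0 in MIF-KO MM.1S against 15.7 in CTR-KO MM.1S. It was high on 1 array, the one where ANXA1 and MYOF were lowest, while CHMP4B, the main filament subunit, had 1000.1 and 1171 on the MIF-KO and CTR-KO arrays of ARP-1. CHMP4B is named beyond the naming rule, for comparison.

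Among the lipid scrambling genes, the scramblase ANO6 had 1871 in MIF-KO ARP-1 against 1297 in CTR-KO ARP-1 and 1475 in MIF-KO MM.1S against 1702 in CTR-KO MM.1S, and 0 of 2 tested genes reached 1.5-fold. Sorcin (SRI), which binds ANXA7, differed by 0.32 and 0.29. The 4 tested genes of the glucocorticoid response list had no direction common to all. Of these, 1 was higher in MIF-KO ARP-1 and 2 in MIF-KO MM.1S, at any size. Their median log2 differences were -0.19 in ARP-1 and -0.10 in MM.1S. DUSP1 differed by -0.31 and 0.09, with the signs of ANXA1. FKBP5 had 41.6 in MIF-KO ARP-1 against 74.8 in CTR-KO ARP-1, and 55.9 in MIF-KO MM.1S against 39.5 in CTR-KO MM.1S. Within each line its sign was that of ANXA1, but its lowest array was CTR-KO MM.1S and not MIF-KO ARP-1. KLF9 had 113 against 63.3 in ARP-1 and 142 against 219 in MM.1S (MIF-KO against CTR-KO). Its signs were opposite to those of ANXA1, with the highest value on CTR-KO MM.1S. Of the 4 tested genes of this list, 1 was higher and 1 lower at 1.5-fold in MIF-KO ARP-1. Over all tested genes 10.9% were higher and 11.9% lower. PLG was the only plasminogen gene named of 7 listed, with at most 6.54.

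**Figure D4:**
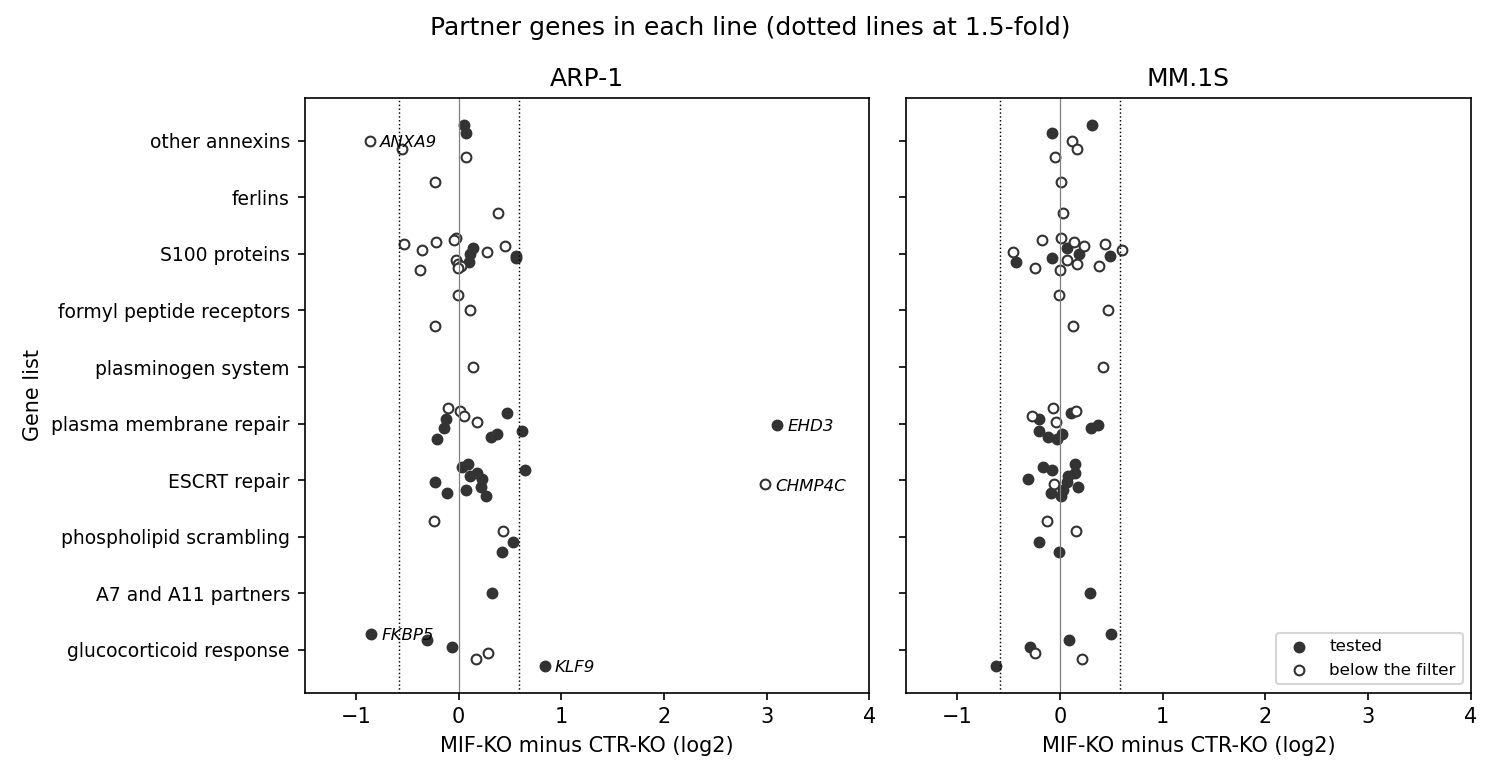
Log2 difference, MIF-KO minus CTR-KO, of each named gene of the 10 partner lists in ARP-1 (left) and MM.1S (right); filled points passed the filter on low values, open points did not, and dotted lines mark 1.5-fold. EHD3 at 3.10 and CHMP4C at 2.98 stand far from the rest in ARP-1, and in MM.1S nearly all points lie within 1.5-fold.

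Of the plasma cell markers, the surface proteins SDC1 and CD38 were lower in MIF-KO than in CTR-KO ARP-1, as ANXA1 was. The surface protein SLAMF7 was not, with 122 in MIF-KO ARP-1 against 120 in CTR-KO ARP-1, and 80.3 in MIF-KO MM.1S against 62.1 in CTR-KO MM.1S. SDC1 had 184 in MIF-KO ARP-1 against 471 in CTR-KO ARP-1, and 471 in MIF-KO MM.1S against 337 in CTR-KO MM.1S. CD38 had 41.8 in MIF-KO ARP-1 against 113 in CTR-KO ARP-1, and 56.2 in MIF-KO MM.1S against 41.0 in CTR-KO MM.1S. Of the 6 marker genes measured, all of which were tested, 2 were lower and 0 higher at 1.5-fold in MIF-KO ARP-1, where 11.9% of tested genes were lower and 10.9% higher. In MIF-KO MM.1S 1 was lower and 0 higher, where 2.89% of tested genes were lower and 5.12% higher. The MM.1S gene was MZB1, a chaperone of antibody secretion, with log2 differences of 0.45 for ARP-1 and -0.63 for MM.1S, the opposite signs to SDC1 and CD38. The transcription factors IRF4 and XBP1 differed by 0.29 and 0.51 in ARP-1, and by -0.007 and -0.05 in MM.1S. Their part in the annexin differences was not tested. Fewer cells of a kind and less RNA per cell cannot be told apart on these arrays.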

How the data were processed

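RNA of 4 arrays was measured with 1 array per line and condition. The deposited table holds 1 column of linear probe set intensities (2.74 to 15935) per array. Per the submitters' processing notes RMA and limma were used, without a version or the step each served. How background was removed and which annotation or build applied is not given in the sources used here. Log2 was taken with no pseudocount. The platform annotation named 16098 of 53617 probe sets (14884 genes); a gene with several probe sets was represented by the brightest. The 7442 genes with a mean log2 at or above the median gene mean (4.97) were tested.

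Limma (version 3.58.1, under R 4.3.3) was fitted with cell line and condition, eBayes with a trend and Benjamini-Hochberg adjustment over all tested genes. It leaves 1 residual degree of freedom. Same-line arrays are paired by the labels, though their deviations from the condition means correlated at -0.37 across genes. Within a line there is no test, and 1.5-fold is the limit used for counts. The number of arrays limits the precision, and p-values measure only the spread between these samples, which may be technical. Members and lists were chosen with earlier results of these data known. The text names all members, MIF, up to 4 genes per list by mean size of the difference over the lines, and the 5 tested genes nearest to ANXA1 and MYOF. The model was also tested on simulated data. Alternatives covered the filter, the scaling, a pseudocount of 16, the variance trend, the line term, the probe set rule, each line left out and the exchange of the ARP-1 arrays.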

Additional observations from a re-analysis of the deposited data

Results flagged for a closer look

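Members and list genes whose difference, MIF-KO minus CTR-KO, had opposite signs in the lines and reached 1.5-fold in at least 1 of them are given here by the MM.1S difference minus the ARP-1 difference on the log2 scale. With 1 array per line and condition these were not tested. The value was 4.07 for ANXA1, 3.87 for MYOF and 1.14 for ANXA6. Among list genes lower in MIF-KO ARP-1 it was 1.35 for FKBP5, 0.98 for ANXA9 and 0.96 for S100A7, the last with 5.44 to 9.02 on the 4 arrays, under their medians. It was negative for list genes higher in MIF-KO ARP-1: -3.04 for CHMP4C, -1.46 for KLF9, -0.82 for VAMP3 and -0.72 for CHMP1B.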

How the results depend on the processing

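The exchange of the ARP-1 arrays, as their free-text descriptions name them, was the alternative that changed most. With it MIF would be 2.02-fold higher in MIF-KO ARP-1, a size that 6.38% of tested genes reached in ARP-1 in either direction. By the titles, MIF-KO ARP-1 was closest to CTR-KO MM.1S (6.64% of tested genes 1.5-fold or more apart). CTR-KO ARP-1 was closest to MIF-KO MM.1S (10.5%). Which naming holds was not tested. The exchange raised the limma count for MIF-KO against CTR-KO to 401 of 7442 genes (252 higher, 149 lower), from 0 otherwise. Then 3 members were higher in ARP-1 in place of lower: ANXA1 by 3.63, MYOF by 2.63 and ANXA6 by 0.63 on the log2 scale. The means over lines turned to 2.03 for ANXA1 (limma adjusted p = 0.052) and 1.93 for MYOF (limma adjusted p = 0.011). Both genes were picked by the size of their ARP-1 difference, so no support is drawn from these p-values. For ANXA6, which was added as family, the mean turned to 0.57 (limma adjusted p = 0.053). Leaving out each line in turn gave from -3.63 to 0.44 for ANXA1 and from -2.63 to 1.24 for MYOF. The fit with no replicate block, meaning no cell line term, called 0 genes, as did the other filters, scalings, the pseudocount, the fit without trend and the mean of probe sets. The counts of members at 1.5-fold were the same under both scalings, the pseudocount and the mean of probe sets in all 4 comparisons. Without the CTR-KO ARP-1 array 3 arrays cannot carry both model terms with an error. A fit without it and without the line term, chosen after seeing the data, assumes that the lone CTR-KO array varies like the MIF-KO arrays. It sets the MIF-KO arrays of both lines against CTR-KO MM.1S alone, so line and condition are mixed in its differences. These were -0.82 for ANXA1, 0.46 for MYOF and 0.32 for ANXA6.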
